A study of Rattus norvegicus with 6 samples.

Results

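The 6 microglial genes described here, all widely used markers of that cell type, were followed through RNA sequencing of 6 libraries of cultured rat neural cells. They were taken by Ensembl rat identifier from the deposited table of counts, and all 6 of 6 were present among its 26405 genes. The genes were Aif1 (ENSRNOG00000000853), Itgam (ENSRNOG00000019728), Ptprc (ENSRNOG00000000655), C1qa (ENSRNOG00000012807), C1qb (ENSRNOG00000012749) and C1qc (ENSRNOG00000012804). The libraries came from astrocytes, neurons and oligodendrocyte precursor cells (OPCs), 2 of each, each kind bought as its own commercial product. Astrocytes and OPCs had passed through 1 passage, with 8 days of culture before it and 6 days after it, and neurons had 0 passages and 7 days of culture. No culture was labelled as treated or as carrying a mutation, and no library of microglia was analysed here. Cell type went together with product, and for neurons with passage and time as well.

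Microglia are the resident macrophages of the brain. They come from the yolk sac and not from the neural lineage that gives rise to astrocytes, neurons and OPCs, and they are a familiar passenger in primary cultures of brain tissue. Aif1 encodes IBA1, a calcium-binding protein that serves as the usual stain for microglia. Itgam encodes CD11b, the alpha chain of complement receptor 3, and Ptprc encodes CD45, a tyrosine phosphatase on the surface of cells of the blood lineage. C1qa, C1qb and C1qc encode the A, B and C chains of C1q, the recognition molecule that starts the classical complement pathway and tags synapses for removal. In the brain C1q is made mainly by microglia. In bulk RNA, fewer cells of a type and less RNA per cell cannot be told apart, so the values below are amounts of RNA and not numbers of microglia.

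The regulatory sequence just before the start site is shown for 3 genes. C1qa and C1qb lay close together in the genome, and Itgam was the gene with counts in both OPC libraries. A link between these sequences and the levels was not tested. The 3 C1q genes were neighbours on chromosome 5, with 0 other genes listed between them. A start-site sequence was at hand for 4 of the 6 genes (Itgam, Ptprc, C1qa and C1qb). Each line gives the 250 bases before the start on the gene's own strand, from RefSeq on the build GRCr8. The build behind the counts is not given in the sources used here. Capitals mark GGAAGT on either strand, a core recognised by ETS factors, the family of the myeloid regulator PU.1. Itgam lies at chr1:192089342-192089591 on the plus strand, C1qa at chr5:154419934-154420183 and C1qb at chr5:154407828-154408077, both on the minus strand.
C1qa: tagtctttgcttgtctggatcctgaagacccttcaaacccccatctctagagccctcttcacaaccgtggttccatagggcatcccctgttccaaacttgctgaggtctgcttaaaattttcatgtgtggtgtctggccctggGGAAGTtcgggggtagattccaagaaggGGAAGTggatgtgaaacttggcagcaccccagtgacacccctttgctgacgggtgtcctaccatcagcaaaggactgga
C1qb: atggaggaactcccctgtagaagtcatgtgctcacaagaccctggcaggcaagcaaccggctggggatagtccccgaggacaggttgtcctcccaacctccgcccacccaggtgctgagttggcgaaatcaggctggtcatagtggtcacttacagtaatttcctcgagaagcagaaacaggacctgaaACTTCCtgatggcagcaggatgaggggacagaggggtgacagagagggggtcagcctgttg
Itgam: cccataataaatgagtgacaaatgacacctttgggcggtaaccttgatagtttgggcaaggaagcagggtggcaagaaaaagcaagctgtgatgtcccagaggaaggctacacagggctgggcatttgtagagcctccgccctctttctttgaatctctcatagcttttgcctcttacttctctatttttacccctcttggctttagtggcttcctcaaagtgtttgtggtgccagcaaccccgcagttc

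GGAAGT occurred in 3 of the 4 promoters (C1qa, C1qb and Ptprc) and in 19.2% of all 33469 promoter sequences of the same length. In C1qa it stood 2 times on the gene's strand, at 107 to 102 and at 79 to 74 bases before the start, and in C1qb 1 time on the other strand, at 61 to 56 bases before the start. A second ETS core, GAGGAA, is not marked above. It occurred in 3 of the 4 (Itgam, Ptprc and C1qb) and in 23.3% of all promoters. In Itgam it stood at 151 to 146 bases before the start on the gene's strand and at 39 to 34 on the other strand. Both cores were chosen after the sequences had been seen. They describe letters in these windows and say nothing of which factor was bound.

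Total counts lay between 22265917 (OPC replicate 1) and 102861667 (astrocyte replicate 1). Levels are given in CPM, counts divided by library size after scaling with TMM factors. The floor used for a count of 0, 3 counts, corresponded to between 0.0328 CPM in neuron replicate 1 and 0.115 CPM in OPC replicate 1. Markers of astrocytes, neurons and OPCs could not be set beside these genes, since the identifiers of the table matched 0 entries of the name table used here. No pair of libraries was identical. Whether replicates were separate cultures is not stated in the labels, and the p-values therefore reflect only how far these libraries differ, which may be technical.

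All 6 microglial genes had their highest levels in the same 2 libraries, astrocyte replicate 2 and neuron replicate 2, and 0 to 5 counts in each of the other 4. Itgam and C1qc were exceptions to a clear gap. The interval of Itgam in OPC replicate 1 overlapped those in both high libraries. That of C1qc in OPC replicate 2 (0.0134 to 0.190 CPM) overlapped its interval in neuron replicate 2 (0.158 to 0.449 CPM). Together the 6 genes had 645 counts, of which 93.3% fell in the 2 high libraries and 73.3% in astrocyte replicate 2 alone. Their summed level was 0.135 CPM in astrocyte replicate 1 and 11.3 CPM in astrocyte replicate 2, with exact 95% Poisson intervals of 0.0673 to 0.241 and 10.3 to 12.3. It was 0.197 CPM in neuron replicate 1 (0.117 to 0.311) and 2.23 CPM in neuron replicate 2 (1.86 to 2.65). The OPC libraries stood at 0.192 CPM (0.0624 to 0.449) and 0.195 CPM (0.0891 to 0.370). The first replicates of astrocytes and neurons and both OPC libraries thus had overlapping intervals, and the 2 high libraries lay clear of them and of each other. Intervals cover counting error only. Even in the highest library the 6 genes made up 0.000941% of all counts.

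**Figure D1:**
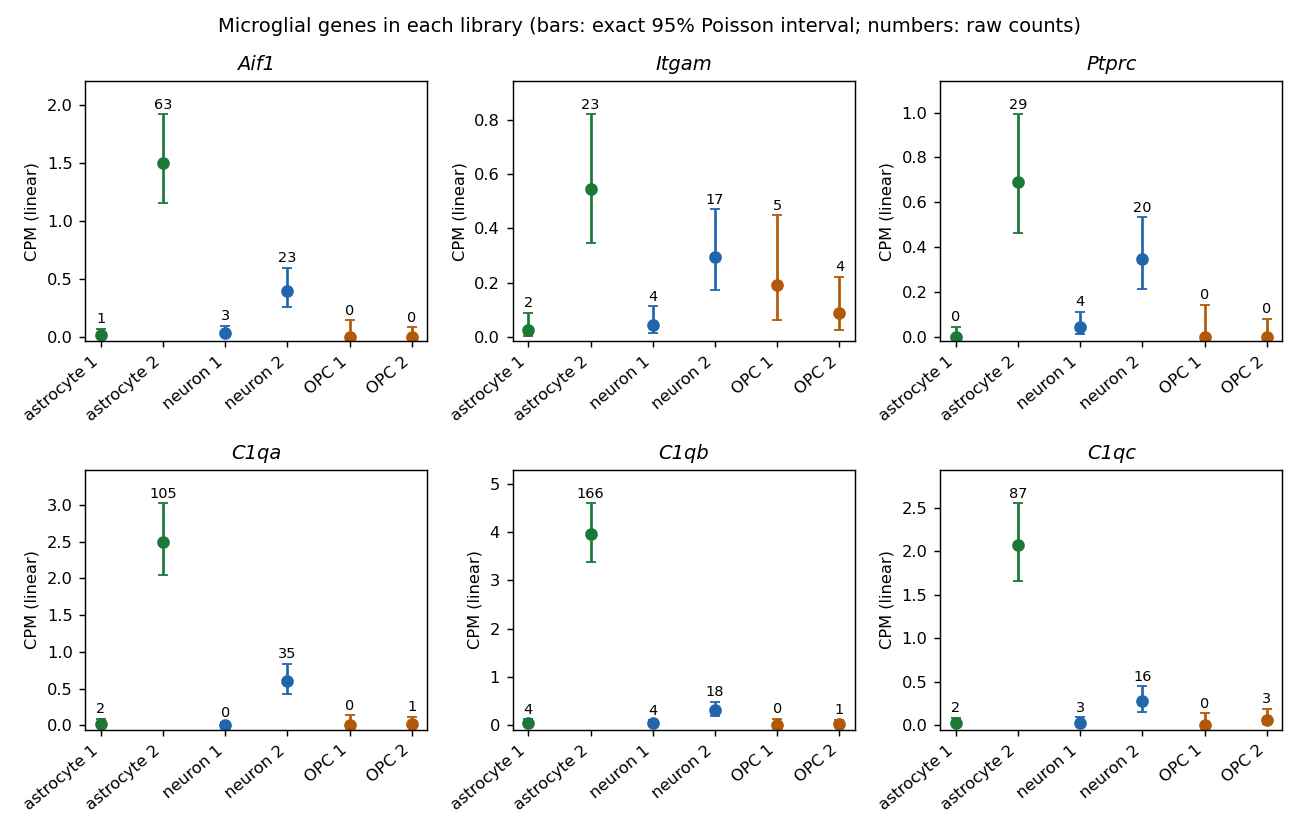
Level of each of the 6 genes in each library in CPM on a linear axis, with exact 95% Poisson intervals of counting error as bars and the raw count above each point. In every panel astrocyte replicate 2 is the highest point and neuron replicate 2 the second, and the other 4 libraries hold 0 to 5 counts each.

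Aif1, the IBA1 gene, had 1 and 63 counts in the astrocyte libraries, 3 and 23 in the neuron libraries and 0 in both OPC libraries. These were 0.0122 and 1.50 CPM in astrocytes and 0.0328 and 0.398 CPM in neurons. Astrocytes and neurons overlapped, since the value in astrocyte replicate 1 lay below both neuron values and that in astrocyte replicate 2 above both. On 1 and 3 counts, the first replicates had overlapping intervals. Ptprc, the CD45 gene, had 0 and 29 counts in astrocytes (0 and 0.691 CPM), 4 and 20 in neurons (0.0437 and 0.346 CPM) and 0 in both OPC libraries. The exact interval of the count of 0 in astrocyte replicate 1 reached 0.0452 CPM, above the value in neuron replicate 1, so those 2 libraries were not told apart. In OPC replicate 1 the exact interval of a count of 0 reached 0.142 CPM. That was more than the level of Aif1 or Ptprc in either replicate 1 of astrocytes and neurons. Those libraries were therefore not distinguishable from OPCs at this depth.

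Itgam, the CD11b gene, had 2 and 23 counts in astrocytes (0.0245 and 0.548 CPM) and 4 and 17 in neurons (0.0437 and 0.294 CPM). It was the one gene of the 6 with counts in both OPC libraries, 5 and 4, or 0.192 and 0.0866 CPM. All 5 counts of the set in OPC replicate 1 came from Itgam. Its intervals in the OPC libraries, 0.0624 to 0.449 and 0.0236 to 0.222, overlapped those in astrocyte replicate 1 (0.00297 to 0.0885) and neuron replicate 1 (0.0119 to 0.112). The interval in OPC replicate 1 also overlapped those in astrocyte replicate 2 (0.347 to 0.822) and neuron replicate 2 (0.171 to 0.471), and that in OPC replicate 2 overlapped the latter. The summed level without Itgam was 0 and 0.108 CPM in OPCs, on 0 and 5 counts, and 0.110 and 0.153 CPM in the first replicates of astrocytes and neurons.

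Among the C1q chains, C1qa had 2 and 105 counts in astrocytes (0.0245 and 2.50 CPM), 0 and 35 in neurons (0 and 0.605 CPM) and 0 and 1 in OPCs (0 and 0.0216 CPM). C1qb had 4 and 166 counts in astrocytes (0.0490 and 3.95 CPM), 4 and 18 in neurons (0.0437 and 0.311 CPM) and 0 and 1 in OPCs (0 and 0.0216 CPM). C1qc had 2 and 87 counts in astrocytes (0.0245 and 2.07 CPM), 3 and 16 in neurons (0.0328 and 0.277 CPM) and 0 and 3 in OPCs (0 and 0.0649 CPM). For each chain astrocyte replicate 1 held 2 to 4 counts and the first neuron library and the OPC libraries 0 to 4, so a single astrocyte library held nearly the whole astrocyte signal. None of the 3 chains was detected in OPC replicate 1.

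Within a cell type the gap between replicates was large. In astrocytes replicate 2 exceeded replicate 1 by 83.6-fold for the summed counts (95% counting interval 46.3 to 169). By gene the ratio was 122 for Aif1 (21.2 to 4913), 102 for C1qa (27.6 to 854), 84.6 for C1qc (22.7 to 709), 80.7 for C1qb (30.9 to 300) and 22.4 for Itgam (5.52 to 196). Ptprc in replicate 2 stood 18.8-fold above a floor of 3 counts in replicate 1, a value that leaves out the counting error of replicate 2. In neurons the summed counts were 11.3-fold higher in replicate 2 (6.90 to 19.7). There the ratio was 12.1 for Aif1 (3.66 to 63.1), 8.44 for C1qc (2.42 to 45.2), 7.91 for Ptprc (2.65 to 31.8), 7.12 for C1qb (2.35 to 28.9) and 6.72 for Itgam (2.19 to 27.5). C1qa stood 18.5-fold above a floor of 3 counts in neuron replicate 1, again without the counting error of replicate 2. In OPCs the ratio was 1.01 for the summed counts (0.305 to 3.85), with Itgam higher in replicate 1 and the C1q genes in replicate 2. Without Itgam the 2 OPC libraries held 0 and 5 counts, too few to show or exclude a gap. These ratios compare single libraries.

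Few other genes showed this pair of gaps. On the log2 CPM scale with a prior count of 2, which pulls low counts towards each other, replicate 2 exceeded replicate 1 by more than 4-fold for all 6 microglial genes in astrocytes, against 1.6% of the 18206 genes tested. All 6 also passed 4-fold in neurons, against 1.54% of genes tested. In OPCs, 0 to 5 counts a gene left little room for a 4-fold difference on this scale. Both gaps at once were found in 49 genes tested (0.269%), the 6 among them. Low counts vary more, and all 6 genes had a mean under 1 CPM. Of the 2401 genes tested below that level, 1.33% passed 4-fold in both. The low-count filter kept Aif1, Ptprc and the C1q genes only through astrocyte replicate 2 and neuron replicate 2, and so favoured such a pattern. Among all 24873 genes with a count, 56 passed in both. With an 8-fold limit 14 of all genes tested passed in both, with 1 of the 6, C1qa, among them. The pattern and its limit were set after the values had been seen.

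**Figure D2:**
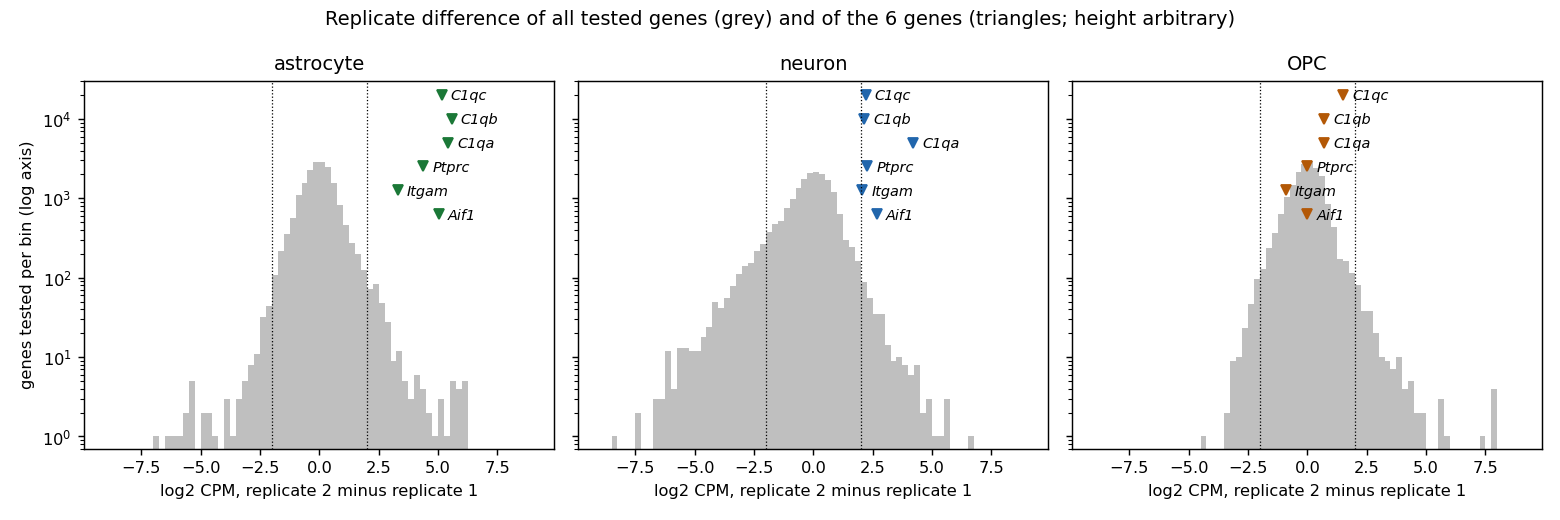
Histogram of the difference in log2 CPM (prior count 2) between replicate 2 and replicate 1 for the 18206 genes tested, on a log count axis, in astrocytes, neurons and OPCs. Triangles mark the 6 genes and dotted lines a 4-fold difference; the triangles lie to the right of the upper line in astrocytes (3.30 to 5.57) and neurons (2.07 to 4.20) and inside the lines in OPCs (-0.90 to 1.52), where 0 to 5 counts a gene leave little room for a 4-fold difference.

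The genes did not keep the same proportions in the 2 high libraries. The C1q chains together took 75.7% of the 473 counts of the set in astrocyte replicate 2 (95% Wilson interval 71.6 to 79.3) and 53.5% of the 129 in neuron replicate 2 (44.9 to 61.9). C1qb accounted for most of that gap, at 35.1% (30.9 to 39.5) against 14.0% (9.01 to 21.0). Ptprc took 6.13% (4.30 to 8.67) against 15.5% (10.3 to 22.7), and Itgam 4.86% (3.26 to 7.19) against 13.2% (8.39 to 20.1). For these 3 genes the intervals did not overlap. They did for Aif1 (13.3% and 17.8%), C1qa (22.2% and 27.1%) and C1qc (18.4% and 12.4%). Shares are of counts and are compared only between libraries for the same gene, since gene lengths were not used.

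In levels, astrocyte replicate 2 exceeded neuron replicate 2 by 5.05-fold for the summed counts (counting interval 4.15 to 6.18). The excess was 12.7-fold for C1qb (7.79 to 22.0), 7.49-fold for C1qc (4.36 to 13.7), 4.13-fold for C1qa (2.79 to 6.24) and 3.77-fold for Aif1 (2.31 to 6.37). It was 2.0-fold for Ptprc (1.09 to 3.72) and 1.86-fold for Itgam (0.952 to 3.71), the latter with an interval that reached below 1. The gap between these 2 libraries was therefore wider for C1qb than for C1qa, Aif1, Ptprc and Itgam by more than counting error. The intervals of C1qb and C1qc overlapped. With 1 high library per cell type it says nothing of astrocyte against neuron cultures in general. The first replicates and the OPC libraries held 5 to 18 counts of the set each, too few to compare proportions.

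**Figure D3:**
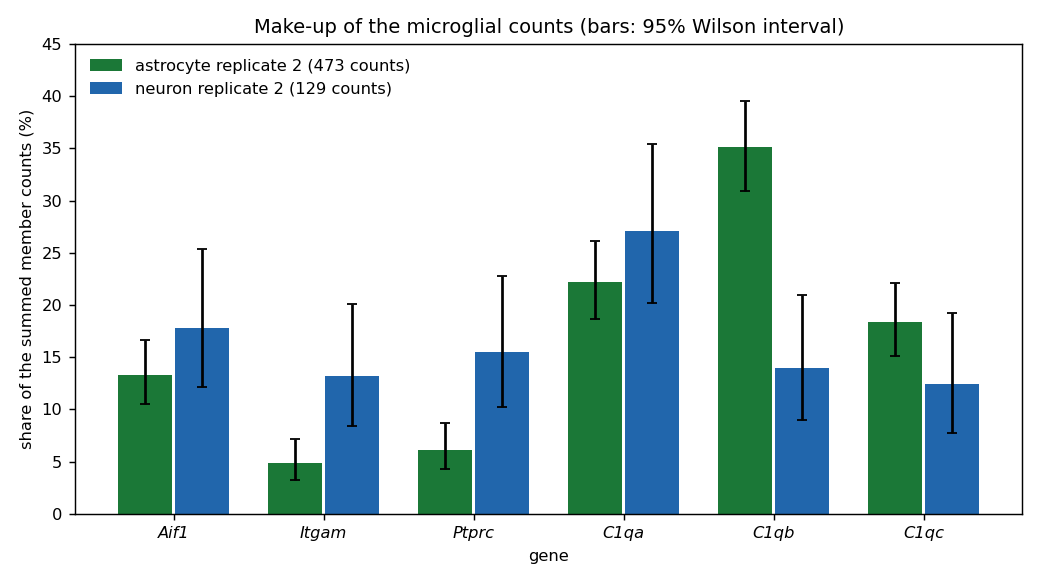
Share of each gene in the summed counts of the 6 genes, in percent, in astrocyte replicate 2 (473 counts) and neuron replicate 2 (129 counts), with 95% Wilson intervals. C1qb takes 35.1% in the astrocyte library and 14.0% in the neuron library, and Itgam and Ptprc take larger shares in the neuron library.

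Profiles over the 6 libraries were compared by the root mean square difference of log2 CPM after centring each gene on its own mean. Aif1, Ptprc and the C1q genes lay close together, with Itgam further off. Seen from these 5 genes, Itgam ranked from 60 (C1qa) to 208 (C1qb) among the 18205 others. Of 18200 genes outside the set, 37 were nearer than Itgam to the mean profile of the 6. That mean includes Itgam itself, which makes its distance smaller, so this rank is partly built in. The median distance of Itgam to all genes tested was 1.37, against 1.91 (Ptprc) to 2.47 (C1qa) for the other 5, so more genes lay near it. Among 18205 other genes tested, Ptprc was the nearest to Aif1 and Aif1 the nearest to Ptprc, at 0.42 log2 units. C1qb and C1qc were each other's nearest, at 0.53. For each of Aif1, Ptprc, C1qa, C1qb and C1qc, 4 other genes of the set were among the 20 nearest, while for Itgam 0 were. Outside the set the profiles nearest to the mean profile of the 6 were those of ENSRNOG00000024382, with 1 and 23 counts in astrocytes, 1 and 12 in neurons and 0 and 1 in OPCs, and of ENSRNOG00000020845, with 0 and 33, 0 and 17, and 1 and 0. Their distances were 0.43 and 0.54, and no symbol was at hand for either. The closeness rests on 2 libraries being high, which are also those through which 5 of the 6 genes passed the low-count filter, and 6 libraries carry few distinct shapes.

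Between cell types, none of the 6 genes was called different in any comparison by edgeR's fit of all 6 libraries, which ignored replicate numbers. The mean summed level was 5.70 ± 7.87 CPM in astrocytes, 1.21 ± 1.44 CPM in neurons and 0.194 ± 0.00176 CPM in OPCs (SD, n = 2 each). In astrocytes and neurons the SD exceeded the mean, so neither the step from OPCs to neurons nor that from neurons to astrocytes was larger than the spread between replicates. The same held gene by gene, with 2.0 ± 2.76, 0.178 ± 0.189 and 0.0108 ± 0.0153 CPM for C1qb and 0.756 ± 1.05, 0.215 ± 0.258 and 0 CPM for Aif1. Itgam was at 0.286 ± 0.370, 0.169 ± 0.177 and 0.139 ± 0.0748 CPM. For all 6 genes the order of the means was astrocytes, neurons, OPCs.

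Neurons against astrocytes gave 0 of 6 calls, by edgeR's quasi-likelihood test with Benjamini-Hochberg adjustment over 18206 genes, where 30.4% of genes tested were called. None had an unadjusted p under 0.05, and DESeq2 and limma-voom also called 0, against 36.4% and 32.8% of the genes they tested. Fitted log2 fold changes were all negative, from -0.73 ± 1.39 (SE) for Itgam to -3.52 ± 1.75 for C1qb (edgeR adjusted p = 0.169), with a median of -1.95 beside -0.06 for all genes tested. With limma-voom the median of the 6 was -0.64. Their sign rested on astrocyte replicate 2. Without it all 6 were positive, from 1.79 for C1qb to 6.54 for Ptprc, whose value then compares with 0 astrocyte counts and depends on the prior count. Without neuron replicate 1, Itgam (0.13) and Ptprc (0.09) also turned positive. The ratio of summed levels, neurons over astrocytes, was 0.213 and became 9.01 without astrocyte replicate 2. Omitting neuron replicate 2 gave 0.0345, omitting neuron replicate 1 gave 0.392 and omitting astrocyte replicate 1 gave 0.108. Without astrocyte replicate 1 the edgeR test called C1qb lower in neurons (adjusted p = 0.0402, with a range of 0.0402 to 0.562 over the alternatives), where 18.2% of genes tested were called.

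OPCs against astrocytes also gave 0 of 6 calls by the same edgeR fit, without regard to replicate numbers, where 25.5% of genes tested were called. One gene, C1qb, had an unadjusted p under 0.05 (log2 fold change -6.99 ± 2.43, edgeR adjusted p = 0.078), and limma-voom called 0, against 25.5% of genes tested. DESeq2 called 3, Aif1 (adjusted p = 0.013), C1qb (adjusted p = 0.00286) and C1qc (adjusted p = 0.0448), all lower in OPCs, against 31.1% of the genes it tested. With the replicate number as a block, edgeR called 2, C1qa (adjusted p = 0.0178) and C1qb (adjusted p = 0.0348), both lower in OPCs. There 26.5% of genes tested were called, and the labels do not say what the numbers mark. Without astrocyte replicate 1 the edgeR test called C1qb as well (adjusted p = 0.0165), where 14.5% of genes tested were called. Over the alternatives the adjusted p ran from 0.013 to 0.687 for Aif1, from 0.0178 to 0.920 for C1qa, from 0.00286 to 0.651 for C1qb and from 0.0448 to 0.874 for C1qc. On pooled counts astrocytes exceeded OPCs by 99.3-fold for C1qb (counting interval 17.6 to 3944), 62.5-fold for C1qa (11 to 2491), 17.3-fold for C1qc (5.74 to 85.6) and 1.62-fold for Itgam (0.732 to 3.95). The floor of 3 counts over both OPC libraries was 0.0416 CPM. The astrocyte mean CPM, not the pooled counts, stood 18.2-fold above it for Aif1 and 8.31-fold for Ptprc. These bounds leave out the counting error of the astrocyte counts and the gap between replicates. The median log2 fold change was -6.65, or -4.42 with Aif1 and Ptprc at their bounds, beside -0.04 for all genes tested, and -2.76 with limma-voom. These figures too came from 1 library. The ratio of summed levels, OPCs over astrocytes, was 0.0340 and became 1.44 without astrocyte replicate 2. It was 0.0172 without astrocyte replicate 1, and 0.0100 with all libraries but without Itgam in the sum.

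Neurons against OPCs gave 0 of 6 calls by edgeR, where 12.4% of genes tested were called, and 0 by DESeq2 and limma-voom, against 21.7% and 11.8%. No gene of the set had an unadjusted p under 0.05 in the edgeR fit. Fitted log2 fold changes ran from 0.28 ± 1.51 for Itgam (edgeR adjusted p = 0.926) to 6.59 ± 3.90 for Aif1 (edgeR adjusted p = 0.32). On pooled counts neurons exceeded OPCs by 16.9-fold for C1qa (counting interval 2.84 to 687), 10.6-fold for C1qb (1.72 to 439), 3.06-fold for C1qc (0.902 to 16.2) and 1.13-fold for Itgam (0.495 to 2.80). The counting intervals leave out the gap between replicates. Neuron replicate 2 held all 35 neuron counts of C1qa, 18 of 22 of C1qb and 16 of 19 of C1qc. The neuron mean CPM, not the pooled counts, stood 5.18-fold above the same floor for Aif1 (0.215 CPM) and 4.69-fold for Ptprc (0.195 CPM). Counting error of the neuron counts is left out. These bounds rest on neuron replicate 2, since neuron replicate 1 stood at 0.0328 CPM for Aif1 and 0.0437 CPM for Ptprc, about at the floor of 0.0416 CPM. The median was 3.86, or 2.30 with these 2 genes at their bounds, beside 0.05 for all genes tested, and 1.78 with limma-voom. The ratio of summed levels was 6.27. Omitting neuron replicate 2 gave 1.02, omitting neuron replicate 1 gave 11.5 and leaving Itgam out of the sum gave 19.3, Itgam being the gene with most of the OPC counts.

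**Figure D4:**
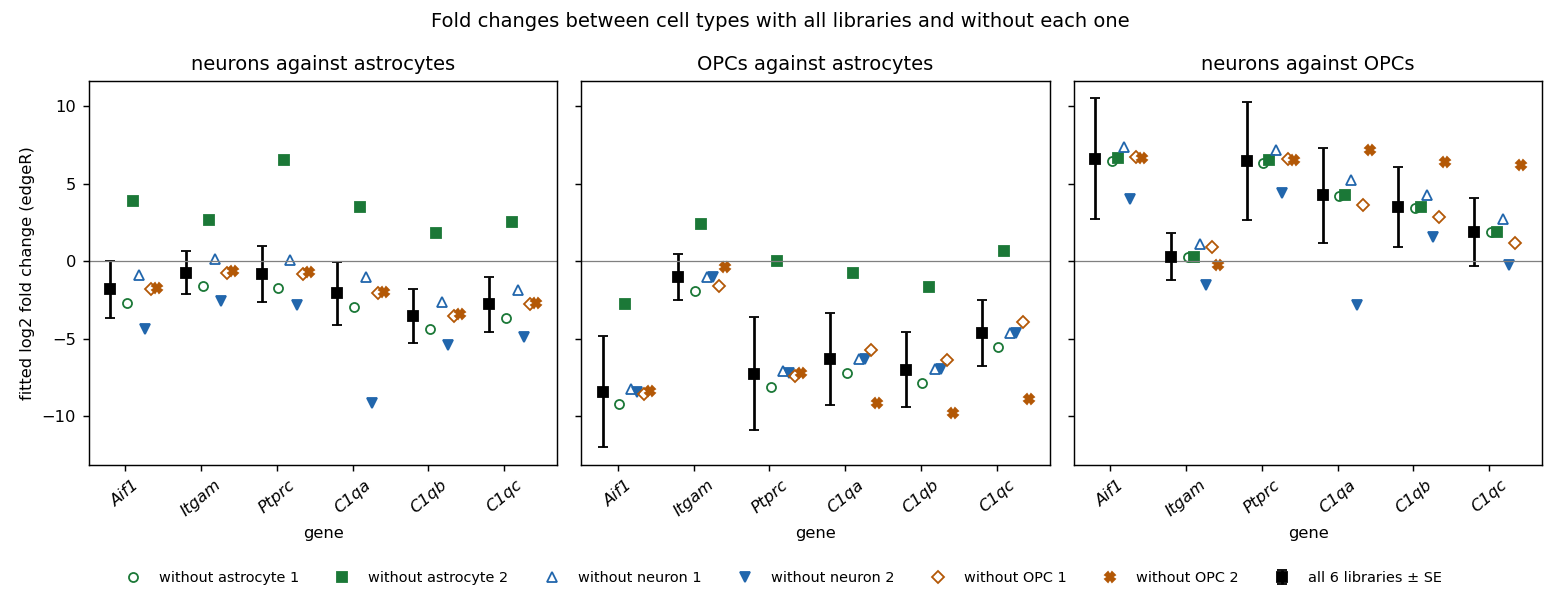
Fitted log2 fold change of each gene in the 3 comparisons, with all 6 libraries (black squares, bars of 1 SE) and without each library in turn (open symbols for replicate 1, filled for replicate 2). In neurons against astrocytes all 6 values turn positive without astrocyte replicate 2, and in the other panels that library or neuron replicate 2 moves the values most for several genes; values against a group at 0 depend on the prior count.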

How the data were processed

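The deposited table holds raw counts per gene as the authors left them, all whole numbers. Per the labels' protocols, RNA from a column kit was read on an Illumina HiSeq2500. Aligner, counter, build, annotation and use of strand were not given in the sources used here. Each column name equals a sample's description, and 0 columns were left out. The 6 symbols come from the definition of the gene set. The table pairs none with its identifiers, and the RefSeq name table (GRCr8) matched 0 of them, so the pairing was not checked, and lists of other microglial, complement and cell type marker genes were not run.

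Genes were kept by filterByExpr (minimum count 10, minimum total 15), leaving 18206. edgeR 4.0.16 in R 4.3.3 fitted all 6 libraries with TMM scaling and a robust quasi-likelihood model without a block, leaving 3 residual degrees of freedom, with Benjamini-Hochberg adjustment at 0.05. SEs were worked out as the fold change over the square root of F. Ratios of 2 counts have exact conditional binomial intervals (scipy 1.17.1). Promoter sequences were checked to run on the gene's strand by the position of TATAAA.

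The fit was tested on simulated data with known differences. All 6 genes were named, and nearest profiles by the distance given. The genes and lists were chosen with earlier results of these data known. The alternatives tried were DESeq2 1.42.0, limma-voom from limma 3.58.1, scaling by RLE, by upper quartile and by totals, other filters, fits of 4 libraries, the replicate block and omission of each library.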

Additional observations from a re-analysis of the deposited data

How the results depend on the processing

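Of 252 fold changes of single genes under alternatives, 224 kept their sign and stayed uncalled, 7 gained a call and 20 changed sign. For 1, Ptprc in OPCs against astrocytes without astrocyte replicate 2, the value was 0, both groups then having 0 counts. Under the replicate block 2 of the 6 genes were called in OPCs against astrocytes, C1qa and C1qb, where 26.5% of all genes tested were called, with DESeq2 3, where 31.1% were, and without 1 library between 0 and 1 there and in neurons against astrocytes. The block turned Ptprc to 0.023 in neurons against astrocytes and Itgam to -0.24 in neurons against OPCs. The deviations of libraries with the same number correlated at 0.147, 0.292 and 0.162 over genes. With only 2 numbers, and nothing in the labels on what they mark, they were not taken to pair the libraries. With limma-voom Itgam was at 0.015 and Ptprc at 1.24 in neurons against astrocytes, and Itgam at 0.29 in OPCs against astrocytes and -0.28 in neurons against OPCs.

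Leaving out 1 library gave log2 fold changes in neurons against astrocytes of -4.40 to 3.90 for Aif1, -2.56 to 2.66 for Itgam, -2.83 to 6.54 for Ptprc, -9.16 to 3.51 for C1qa, -5.43 to 1.79 for C1qb and -4.88 to 2.53 for C1qc. In each the low end came without neuron replicate 2 and the high end without astrocyte replicate 2. It gave -1.90 to 2.38 for Itgam and -8.87 to 0.65 for C1qc in OPCs against astrocytes, and -1.55 to 1.14 for Itgam, -2.85 to 7.17 for C1qa and -0.25 to 6.20 for C1qc in neurons against OPCs. Where a group then had 0 counts of the gene, the value depends on the prior count. Ratios of summed levels were 0.0345 to 9.01, 0.0172 to 1.44 and 1.02 to 11.5 in the same order, and other scalings, pooled counts or the omission of 1 gene moved them by less than the spread between replicates. A limit of 8-fold in place of 4-fold, chosen after seeing the data, left 1 of the 6 genes past it in both cell types. Among all genes tested that limit left 14. Total counts alone gave 5 of the 6 and 43 of all genes tested, and a prior count of 0.5 all 6 and 67.

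Genes called over the whole table ranged from 3306 to 5996, 2182 to 5831 and 116 to 2759 without 1 library, where the lone library of a group is assumed to vary like the others. The lowest came without astrocyte replicate 1, OPC replicate 2 and OPC replicate 2. DESeq2 called 4041 for neurons against OPCs. Scaling by totals alone shifted the median of log2 fold changes over all tested genes from -0.06 to 0.40 in neurons against astrocytes and from -0.04 to 0.39 in OPCs against astrocytes, and the median of the 6 genes from -1.95 to -1.61 and from -6.65 to -6.32. With a prior count of 0.5 the median rank of the other 5 genes by likeness moved from 8850 to 13943 for Itgam and from 16 to 8 for Ptprc, and lay between 4 and 7 for the other 4 genes. The cause of these changes was not tested. At a mean of at least 1 CPM 0 of the 6 genes remained, so that filter gives no value for them. Counts of 0 to 5 in 4 of the 6 libraries limit what can be said of those cultures.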
